A study of Mus musculus with 6 samples.

Results

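The Ly6 genes described here are Ly6c2, Ly6c1, Ly6a, Ly6i and Ly6e, 5 of the 14097 genes in the table. They were picked by name because several of them rise strongly in Il10rb-/- macrophages (MΦs), so their differences between genotypes are a description of values that chose them and were given no test. All 5 reached 50 normalized counts in at least 1 library, as did 11067 genes in all. RNA-seq was performed on colonic lamina propria MΦs sorted without culture or treatment from 129SvEv mice as CD45+CD11b+CD11cintCD103-CD64+Ly6C-MHCII+ cells. There were 6 libraries: Il10rb-/- (KO) and Il10rb+/- (Het) MΦs at 1, 3 and 12 weeks of age, 1 library for each genotype and age. The comparison asked how loss of the IL10 receptor beta chain alters these MΦs before, around and after weaning.

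The knockout was present in all cells of the animal, and each control animal still lacked 1 Il10rb allele, so no wild-type library was compared here. The receptor chain also serves other cytokines that share it. At 3 and 12 weeks a library came from 1 mouse, and at 1 week from a pool of colons. Nothing was replicated at any age, so no difference at 1 age has a replicate check, and every interval below covers counting error only. Reads on the listed genes numbered between 6700337 in the 3-week Het library and 40754971 in the 12-week Het library.

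Ly6 proteins are small surface proteins with a disulfide-bonded fold of the Ly6/uPAR type, held in the outer membrane leaflet by a GPI anchor. Many are induced by interferons. Ly6c1 and Ly6c2 encode Ly6C, high on inflammatory monocytes and lost as these mature into resident gut MΦs. Ly6a encodes Sca-1, a marker of stem cells, activated lymphocytes and vascular endothelium. Ly6e is broadly expressed and is known for its effects on the entry of viruses into cells. The role of Ly6i is less well known.

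The genes lie side by side on chromosome 15 (GRCm38), and all but Ly6e are on the minus strand. Ly6e is at chr15:74955051-74959905, Ly6i at chr15:74979534-74983430, Ly6a at chr15:74994877-74998031, Ly6c1 at chr15:75044018-75048830 and Ly6c2 at chr15:75108158-75111970. They span 157 kb. Ly6c2 and Ly6c1 are near copies: their coding sequences of 393 bases were 97.7% identical, with 9 substitutions. Ly6a and Ly6i were 86.3% identical, Ly6c2 and Ly6a 81.6%, and Ly6e was between 49.7% and 52.3% identical to the others.

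The first 75 coding bases, from the start codon on, hold 6 of the 9 substitutions between the coding sequences of the Ly6c pair. They are printed on the coding strand (GENCODE transcripts of GRCm38), with capitals in the lower 3 marking bases that differ from Ly6c2. There were 6 such bases in Ly6c1, 4 in Ly6a and 8 in Ly6i.
Ly6c2: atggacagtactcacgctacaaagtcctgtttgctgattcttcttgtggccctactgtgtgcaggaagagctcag
Ly6c1: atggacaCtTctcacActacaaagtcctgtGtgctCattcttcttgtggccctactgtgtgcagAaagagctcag
Ly6a: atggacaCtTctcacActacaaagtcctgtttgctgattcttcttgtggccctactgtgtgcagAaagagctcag
Ly6i: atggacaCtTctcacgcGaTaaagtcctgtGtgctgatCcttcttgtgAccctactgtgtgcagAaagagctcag

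Coding bases 66 to 253, which begin inside this window, are the same in Ly6c2 and Ly6c1, a run of 188 bases and more than a whole 75-base read. A read from inside this run cannot be given to either gene by its letters.
Ly6c2 and Ly6c1: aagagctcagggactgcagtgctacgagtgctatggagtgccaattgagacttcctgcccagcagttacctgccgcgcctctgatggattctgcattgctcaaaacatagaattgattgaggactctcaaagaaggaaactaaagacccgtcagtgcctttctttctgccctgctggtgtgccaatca

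Of the 748 windows of 75 bases in the main Ly6c2 transcript (822 bases), 164 (21.9%) occurred letter for letter in a transcript of another gene, which was Ly6c1. For the main Ly6c1 transcript (844 bases) it was 179 of 770 windows (23.2%), shared with Ly6c2 and Ly6a. For Ly6a it was 6 of 745 windows (0.81%) and for Ly6i 6 of 1082 (0.55%), shared between them, and in the main Ly6a transcript no window was shared with Ly6c2. Ly6e shared none of its 2207 windows. Allowing 2 mismatches, 87.8% of Ly6c2 windows resembled Ly6c1, whereas 15.2% of Ly6a windows and 7.58% of Ly6i windows resembled any other member. The mice were 129SvEv, and the reads were aligned to the C57BL/6J reference. How the counting treated shared reads, and whether strain differences moved reads between Ly6c1 and Ly6c2, was not tested, so the split of reads within the Ly6c pair is uncertain.

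**Figure D1:**
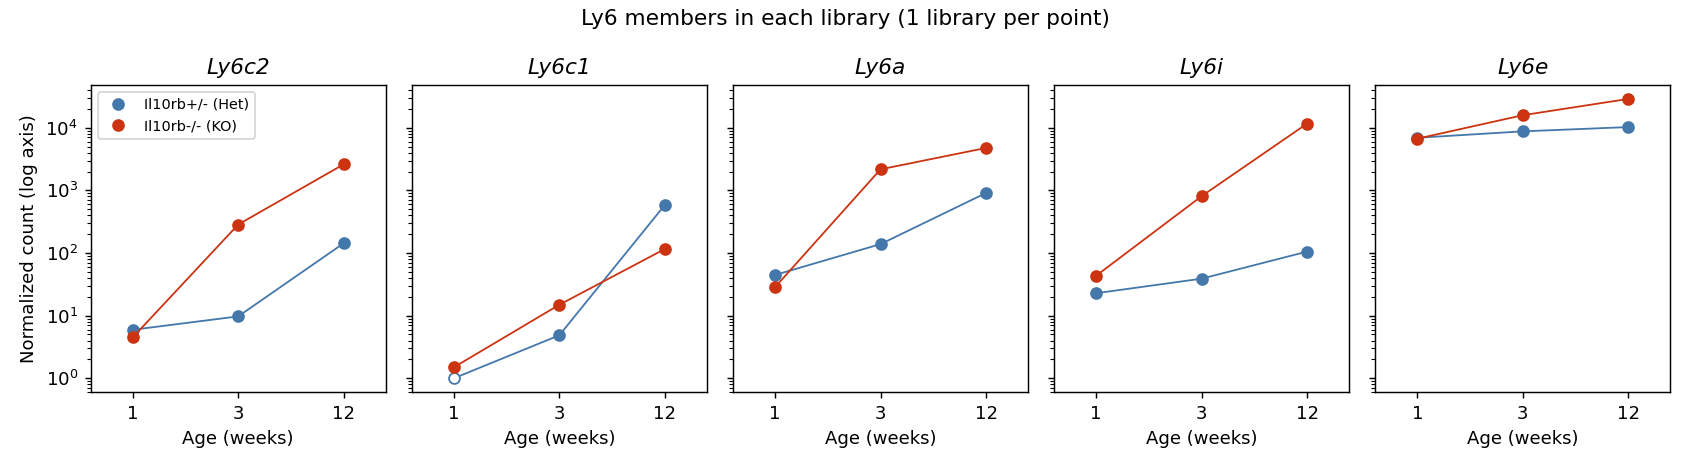
Normalized count of each gene (vertical log axis) against age in weeks in Het (blue) and KO (red) MΦs. Each point is 1 library, lines join the ages of a genotype, and the open point marks 0 reads, shown as 1 in the table. The genotypes lie close together at 1 week, and at 12 weeks the KO library is above the Het library for every gene but Ly6c1.

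Ly6c2, an Ly6C gene, was almost unread in Het MΦs until 12 weeks and was already read in KO MΦs at 3 weeks. Its normalized counts in Het MΦs were 5.95 at 1 week, 9.73 at 3 weeks and 143 at 12 weeks, from 6, 4 and 303 reads. In KO MΦs they were 4.49, 285 and 2611, from 3, 324 and 4100 reads. At 3 weeks KO MΦs thus held 29.3-fold more than Het MΦs (log2 ratio 4.87, 95% interval 3.50 to 6.76), and at 12 weeks 18.2-fold more (4.19, 4.02 to 4.36). At 1 week the genotypes could not be told apart at this depth, with a log2 ratio of -0.40 and an interval of -3.03 to 1.82. The cells had been gated as Ly6C-, so these are transcripts of a gene whose product the gate had selected against. In bulk RNA, a few cells with much Ly6c2 and many cells with little cannot be told apart, and this holds for every gene below.

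Ly6c1, the second Ly6C gene, went the other way at 12 weeks. There were 0 reads in Het and 1 read in KO MΦs at 1 week, which gives no ratio. At 3 weeks the normalized counts were 4.87 in Het and 14.9 in KO MΦs, from 2 and 17 reads, a ratio of 3.07-fold (log2 1.62) whose interval of -0.46 to 4.78 takes in 0. At 12 weeks they were 585 in Het and 116 in KO MΦs, from 1238 and 182 reads. The KO library was here 5.05-fold lower (log2 ratio -2.34, -2.57 to -2.11), the only member that was lower in KO MΦs by more than 3-fold at any age.

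The balance within the Ly6c pair therefore differed between the 12-week libraries. Ly6c2 took 19.7% of the reads of the pair in Het MΦs (exact 95% interval 17.7% to 21.7%) and 95.7% in KO MΦs (95.1% to 96.3%). At 3 weeks it took 95.01% in KO MΦs (92.1% to 97.1%), while the Het library held 6 reads of the pair. These shares rest on how reads that fit both genes were counted, which was not tested.

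**Figure D2:**
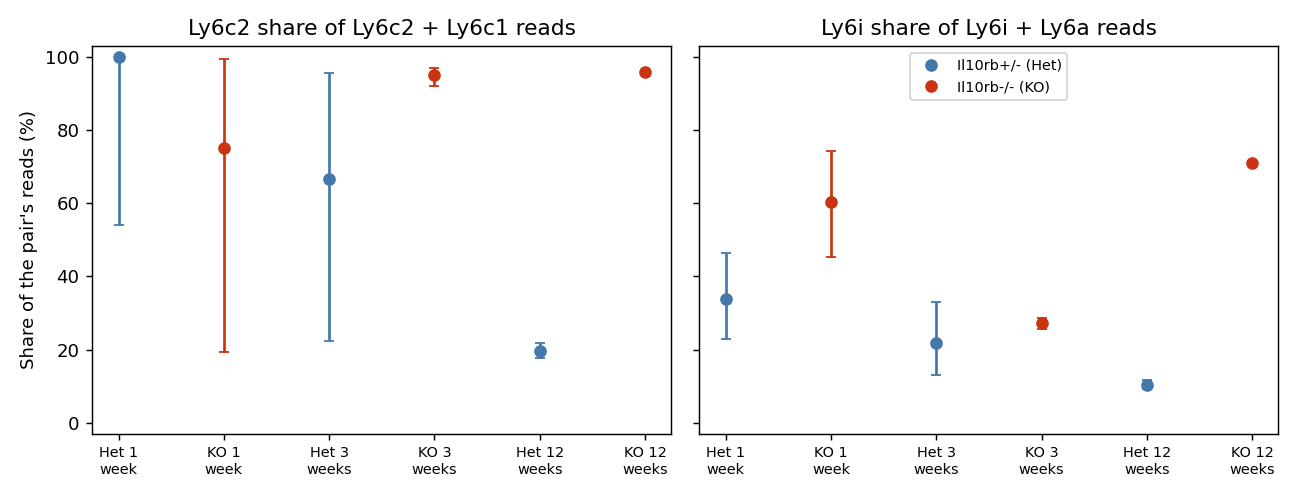
Share of reads (%) taken by Ly6c2 among Ly6c2 and Ly6c1 reads (left) and by Ly6i among Ly6i and Ly6a reads (right) in each of the 6 libraries, Het in blue and KO in red. Bars are exact 95% intervals of the share, and they are wide where a library held few reads. Ly6c2 is at 19.7% in the 12-week Het library alone, and Ly6i reaches 71.0% in the 12-week KO library.

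Ly6a, which encodes Sca-1, was higher in KO MΦs from 3 weeks on, and in Het MΦs was also higher at each later age. Its normalized counts in Het MΦs were 44.6, 139 and 909 at 1, 3 and 12 weeks, from 45, 57 and 1922 reads. In KO MΦs they were 28.5, 2169 and 4760, from 19, 2467 and 7476 reads. The genotypes differed 15.6-fold at 3 weeks (log2 ratio 3.97, 3.59 to 4.37) and 5.24-fold at 12 weeks (2.39, 2.32 to 2.46), so the gap was smaller at the later age. At 1 week the log2 ratio was -0.65 with an interval of -1.51 to 0.15.

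Ly6i showed the largest ratio of the 5 genes and, unlike Ly6c2 and Ly6a, a larger one at 12 than at 3 weeks. Het MΦs held 22.8, 38.9 and 105 normalized counts at 1, 3 and 12 weeks, from 23, 16 and 223 reads. KO MΦs held 43.4, 810 and 11671, from 29, 921 and 18329 reads. The ratio was 1.90-fold at 1 week (log2 0.93, 0.09 to 1.79), 20.8-fold at 3 weeks (4.38, 3.67 to 5.19) and 111-fold at 12 weeks (6.79, 6.60 to 6.99). Among the 11067 genes past the filter it ranked 10th from the top at 12 weeks and 11th at 3 weeks. Ly6i is the gene whose 1-week interval lay above 0, although on 23 and 29 reads.

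The balance of Ly6i and its neighbour Ly6a differed between the genotypes at 12 weeks. Ly6i took 10.4% of the reads of the pair in 12-week Het MΦs (9.14% to 11.8%) and 71.0% in 12-week KO MΦs (70.5% to 71.6%). At 3 weeks its share was 21.9% in Het (13.1% to 33.1%) and 27.2% in KO MΦs (25.7% to 28.7%), with intervals that overlap. At 1 week it was 33.8% in Het (22.8% to 46.3%) and 60.4% in KO MΦs (45.3% to 74.2%), on 68 and 48 reads. Their main transcripts share 6 windows of read length, beside 164 for the Ly6c pair.

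Ly6e was abundant in every library and differed least between genotypes. Its normalized counts in Het MΦs were 6915, 8768 and 10256 at 1, 3 and 12 weeks, from 6974, 3603 and 21692 reads. In KO MΦs they were 6697, 15867 and 28894, from 4471, 18044 and 45377 reads. The libraries were level at 1 week (log2 ratio -0.046, -0.10 to 0.01), KO MΦs were 1.81-fold higher at 3 weeks (0.86, 0.80 to 0.91) and 2.82-fold higher at 12 weeks (1.49, 1.47 to 1.52). Even the lowest of the 6 Ly6e values stood above 97.4% of the genes past the filter.

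**Figure D3:**
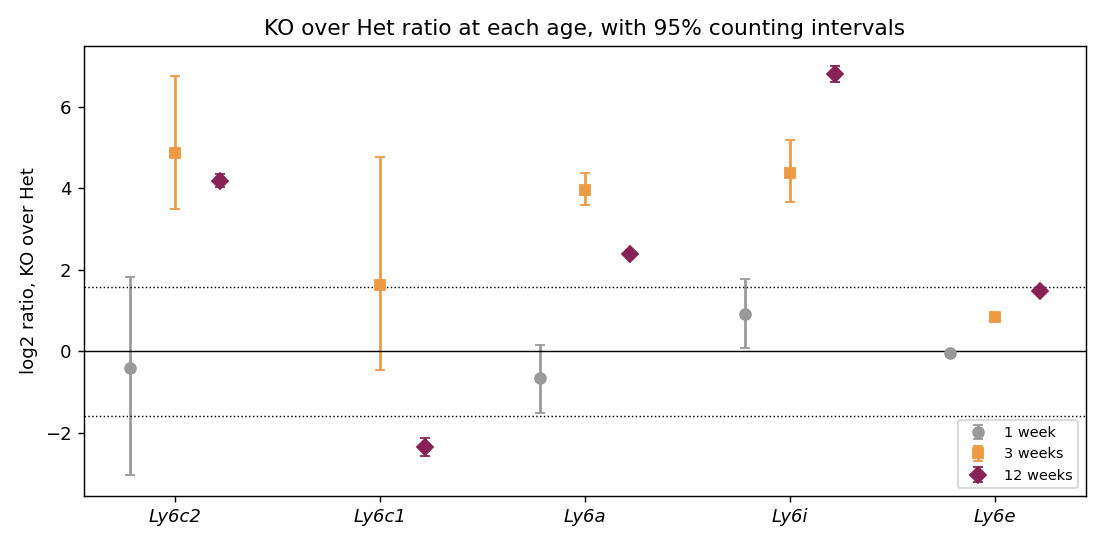
Log2 ratio of KO over Het normalized counts (vertical axis) for each gene at 1 week (grey), 3 weeks (orange) and 12 weeks (purple), with exact 95% counting intervals. Dotted lines mark 3-fold. Ly6c1 is the one gene below the lower line, at 12 weeks, and its wide 3-week interval rests on 2 and 17 reads. Ly6c1 has no point at 1 week, where 0 and 1 reads were found.

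By the study's threshold of 3-fold, with 1 library a group, 0 of the 5 genes were past it in either direction at 1 week, beside 2.75% of all 11067 genes higher and 0.75% lower in KO MΦs. At 3 weeks 4 of the 5 were higher (Ly6c2, Ly6i, Ly6a and Ly6c1) and 0 were lower, beside 1.34% and 0.642% of all genes. At 12 weeks 3 were higher (Ly6i, Ly6c2 and Ly6a) and 1 was lower (Ly6c1), beside 4.03% and 9.99% of all genes. As these ratios chose the genes, nothing is read from the counts. The value just past the line was that of Ly6c1 at 3 weeks (3.07-fold) and the one just short of it that of Ly6e at 12 weeks (2.82-fold). Scaling by total reads or a pseudocount of 10 put Ly6c1 below the threshold at 3 weeks, leaving 3 of the 5. The median log2 ratio of all genes was -0.04, 0.02 and 0.04 at the 3 ages.

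**Figure D4:**
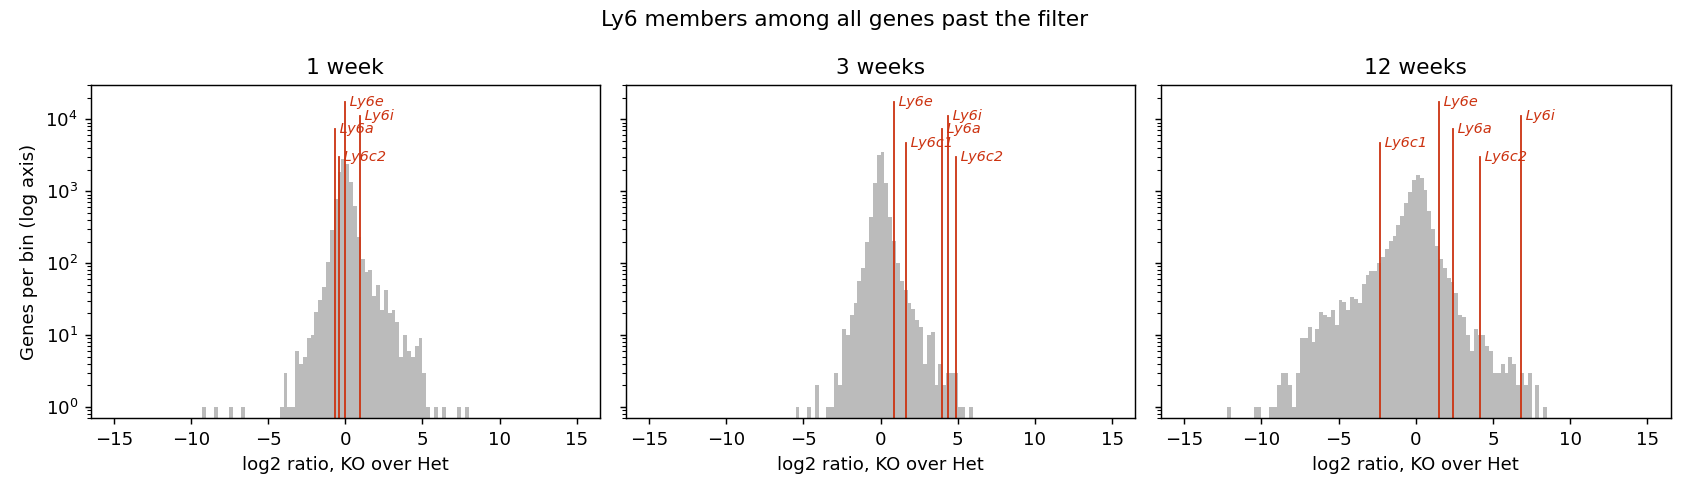
Number of genes per bin (log axis) by log2 ratio of KO over Het normalized counts at 1, 3 and 12 weeks, for the 11067 genes past the filter, with 0 reads shown as 1. Red lines mark the Ly6 genes. They lie within the bulk of genes at 1 week, and Ly6c2, Ly6i and Ly6a lie in the upper tail at 3 weeks. Ly6c1 has no line at 1 week.

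The levels were also compared between ages within each genotype, from 1 to 3 and from 3 to 12 weeks. The steps of a genotype share its 3-week library. In KO MΦs the larger step for Ly6a was from 1 to 3 weeks, 76.2-fold (log2 6.25, 5.61 to 6.99), against 2.19-fold (1.13, 1.07 to 1.20) from 3 to 12 weeks. Ly6c2 was 63.4-fold higher (5.99, 4.43 to 8.27) and then 9.16-fold (3.20, 3.03 to 3.36). Ly6i differed about as much over each, 18.6-fold (4.22, 3.69 to 4.81) and 14.4-fold (3.85, 3.75 to 3.95). Ly6c1 was also higher over each, 9.98-fold on 1 and 17 reads (3.32, 0.65 to 8.70) and then 7.75-fold (2.95, 2.24 to 3.77).

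In Het MΦs the step from 1 to 3 weeks was within counting error of 0 for Ly6c2 (log2 ratio 0.71, -1.56 to 2.79) and Ly6i (0.77, -0.25 to 1.76), and Ly6c1 gave no ratio on 0 and 2 reads. Ly6a was 3.11-fold higher over this step (1.64, 1.05 to 2.23). From 3 to 12 weeks the intervals of all 5 genes lay above 0, though Ly6e turned to -0.015 when scaled by total reads. Ly6c1 was 120-fold higher at 12 weeks on 2 and 1238 reads (6.91, 5.05 to 9.96). Ly6c2 was 14.7-fold higher (3.88, 2.51 to 5.76), Ly6a 6.55-fold (2.71, 2.33 to 3.12) and Ly6i 2.71-fold (1.44, 0.71 to 2.27). Ly6e had log2 ratios of 0.34 (0.28 to 0.40) and 0.23 (0.18 to 0.28) over the steps in Het MΦs and of 1.24 (1.20 to 1.29) and 0.86 (0.84 to 0.89) in KO MΦs. The Ly6C genes were thus also read in the adult control library, where Ly6c1 was the more read of them.

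Levels between the genes were compared per kb of annotated exon. Ly6e stood first in 5 libraries, at 1770 to 4193 normalized counts per kb, and Ly6a or Ly6i came next. In 12-week KO MΦs Ly6i stood first at 10096 per kb, before Ly6e (7636), Ly6a (3951), Ly6c2 (953) and Ly6c1 (69.1). In 12-week Het MΦs the order was Ly6e (2710 per kb), Ly6a (754), Ly6c1 (349), Ly6i (91.2) and Ly6c2 (52.3). The exon length of Ly6c2 and Ly6e is enlarged by long alternative transcripts: with the length of 1 main coding transcript, Ly6e (12667 per kb) was above Ly6i (10096) in 12-week KO MΦs, and Ly6c2 (174) above Ly6i (91.2) in 12-week Het MΦs, so the order of these neighbours depends on the length used.

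Across the 6 libraries, the log2 levels of Ly6c2, Ly6a, Ly6i and Ly6e followed each other with Pearson's r from 0.88 to 0.98, and those of Ly6c1 followed the others with r from 0.55 to 0.77. This describes 6 libraries that differ in genotype and age, and carries no p. The members were picked because several rise in these same libraries, so their likeness to each other is no separate support. The genes named next had the highest r among the 11067 genes past the filter, on only 6 libraries. Nothing is read from which genes they are. The genes outside the family with the most similar pattern were H2-K1, an MHC class I heavy chain, H2-T10, an MHC class I-like molecule, and Ripk3, a kinase of necroptosis, for Ly6c2 (r from 0.991 to 0.992). For Ly6i they were Phf11b, Cox10 and Cxcl9 (0.990 to 0.998), Cxcl9 being a chemokine induced by interferon gamma. For Ly6e they included Tap2, a subunit of the peptide transporter that loads MHC class I, beside Glud1 and Pi4k2b (0.991 to 0.994). Gpr31b, Unc13d and Spryd3 were nearest to Ly6a (0.979 to 0.996) and Glipr1, Cndp2 and Hspe1 to Ly6c1 (0.993 to 0.997).

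The promoters of Ly6c1 and Ly6c2 are printed because these near copies differed in opposite directions between genotypes at 12 weeks. Each is the 250 bases before the outermost annotated start (RefSeq, GRCm38.p6, minus strand, printed 5′ to 3′ in the direction of transcription), chr15:75111972-75112221 for Ly6c2 and chr15:75048838-75049087 for Ly6c1. Capitals mark the longest run that both share, 20 bases, which ends 45 bases before the Ly6c2 start and 20 bases before the Ly6c1 start.
Ly6c2: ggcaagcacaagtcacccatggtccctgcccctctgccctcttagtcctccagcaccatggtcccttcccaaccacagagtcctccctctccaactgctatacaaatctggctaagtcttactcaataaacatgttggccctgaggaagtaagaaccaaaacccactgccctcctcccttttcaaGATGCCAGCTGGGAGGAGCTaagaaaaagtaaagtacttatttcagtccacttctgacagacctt
Ly6c1: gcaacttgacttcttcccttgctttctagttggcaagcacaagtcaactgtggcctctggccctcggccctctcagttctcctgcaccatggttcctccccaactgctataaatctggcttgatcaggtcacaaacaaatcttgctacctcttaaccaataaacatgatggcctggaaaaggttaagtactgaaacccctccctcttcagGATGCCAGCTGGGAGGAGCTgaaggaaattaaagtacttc

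On either strand, neither window held GAAANNGAA, the core of sites bound by interferon regulatory factors, TTCNNNGAA, the site of STAT dimers, or GGGANTTCC, a site of NF-kB. Of all 32851 promoter windows of this length, 7.13%, 7.02% and 1.43% held them. This says only that these letters are not in these windows. Promoters of Ly6a, Ly6i and Ly6e were not analysed here.

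Among 9 other genes of the table within 500 kb of these genes, none of the 4 past the filter was over 3-fold higher in KO MΦs at any age. Of all 11067 genes, 2.75%, 1.34% and 4.03% were over 3-fold higher at 1, 3 and 12 weeks, so nothing is read from this count. The 4 neighbours are named here. They were Arc, Jrk, Them6 and Ly6d. At 12 weeks Arc, an immediate early gene known from neurons, and Ly6d, a Ly6 gene known from lymphoid progenitors and epithelium, were lower in KO MΦs, with log2 ratios of -3.04 and -3.02. Them6 was lower at 1 week (-2.73), on 10 and 1 reads. Below the filter, Ly6g and BC025446 on the far side of Ly6c2 had 0 Het reads each and 25 and 17 KO reads at 12 weeks (BC025446 was named after its values were seen).

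Of the wider Ly6/uPAR family, 12 of 32 other genes were in the table and 4 passed the filter. Plaur, the urokinase receptor, was higher in KO MΦs at all 3 ages, with log2 ratios of 0.66, 0.72 and 0.75, all under 3-fold. Cd59a, which protects cells from complement, had log2 ratios of -0.59, -0.44 and -3.18, and Ly6d of -0.63, -1.02 and -3.02. Lypd8, an epithelial protein that binds bacteria, gave 4.80 (9 Het and 166 KO reads), -0.72 and 1.42. None of these 4 was over 3-fold higher at 3 or 12 weeks, beside 1.34% and 4.03% of all 11067 genes. Nothing is read from a count of 0 among so few genes. Below the filter, Ly6g, the neutrophil marker, had 0 Het and 25 KO reads at 12 weeks, at least 11.2-fold higher against a floor of 3 reads. Lynx1 (67 Het and 5 KO reads at 12 weeks) and Gpihbp1 (82 and 19) were lower, and Ly6k (47 and 33) had an interval that takes in 0. Ly6g5b, Ly6g6d, Ly6g6e and Lypd1 held at most 35 reads in any library.

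Interferon response genes are described beside the Ly6 genes because several of these are induced by interferons. Of 26 such genes, 0 were over 3-fold higher and 3 lower in KO MΦs at 1 week, beside 2.75% and 0.75% of all 11067 genes. At 3 weeks 6 were higher and 0 lower, beside 1.34% and 0.642% of all genes. At 12 weeks 9 were higher and 0 lower, beside 4.03% and 9.99%. The median log2 ratios were -0.36, 0.62 and 1.10. Iigp1, an interferon-induced GTPase, had log2 ratios of 0.31, 4.18 and 4.52, beside 4.87 and 4.19 for Ly6c2 at 3 and 12 weeks. Gbp2 and Gbp5, guanylate-binding proteins, stood at 2.54 and 1.69 at 3 weeks and 4.49 and 4.43 at 12 weeks. Cxcl9 stood at 3.55 and 3.92. Oas3, an antiviral RNA sensor, stood at 1.09 and 2.38. Not all genes of this list followed: Ifit1, Ifit2, Ifit3 and Mx1 had log2 ratios between -1.29 and -0.15 at 12 weeks, and the receptor chains Ifnar1, Ifnar2, Ifngr1 and Ifngr2 between 0.16 and 0.59.

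**Figure D5:**
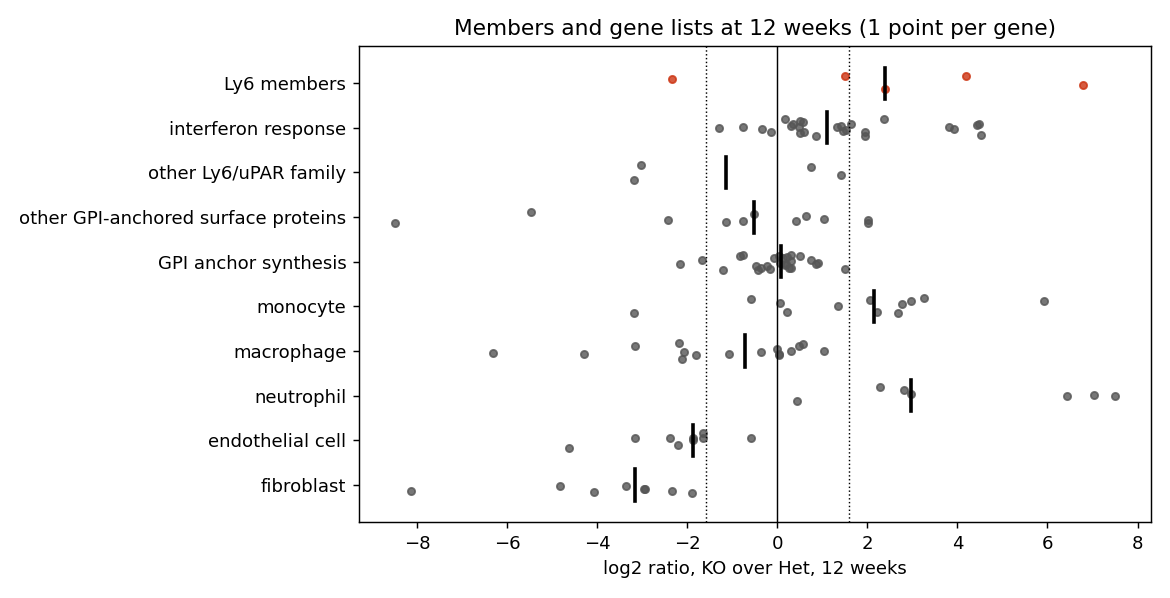
Log2 ratio of KO over Het normalized counts at 12 weeks for the Ly6 genes (red) and for the genes of 9 lists that passed the filter (grey), 1 point per gene, with 0 reads shown as 1. Black bars are medians and dotted lines mark 3-fold. Interferon response, monocyte and neutrophil genes lie mostly to the right, endothelial and fibroblast genes to the left.

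Genes that build the GPI anchor by which Ly6 proteins are held were mostly level between genotypes. Of 26 measured, 0 were over 3-fold in either direction at 1 and 3 weeks. Of all genes, 2.75% and 1.34% were higher and 0.75% and 0.642% lower at these ages. At 12 weeks 0 were higher and 2 lower, beside 4.03% and 9.99% of all genes. The 2 lower were Pgap1 (log2 ratio -2.16), which remodels the anchor, and Pigp (-1.68), a subunit of the enzyme of its first step. The median was 0.09 at 12 weeks. Of 11 other GPI-anchored surface proteins past the filter, 3 were higher and 0 lower at 1 week, beside 2.75% and 0.75% of all genes. At 3 weeks 0 were past 3-fold in either direction, beside 1.34% of all genes higher and 0.642% lower. At 12 weeks 2 were higher and 3 lower, beside 4.03% and 9.99% of all genes. At 12 weeks the higher ones were Nt5e (2.03), an ectonucleotidase, and Bst1 (2.01), an ADP-ribosyl cyclase. The lower ones were Folr2 (-8.49), a folate receptor of resident MΦs, Cd55 (-5.47), an inhibitor of complement, and Prnp (-2.43), the prion protein.

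Across the 3 ages, genotype was tested in limma with age as a term, for genes of these lists and not for the Ly6 genes, which the same contrast chose. After Benjamini-Hochberg adjustment 0 of 11067 genes were called higher (0%) and 0 lower (0%), with 853 at an unadjusted p under 0.05, and limma-voom on the recovered reads called 3 higher (Gm15056, S100a9 and Upp1, named after their values were seen) and 0 lower. The lowest adjusted p of an interferon response gene was 0.561. Without the 1-week libraries, 2 interferon response genes (Cxcl9 and Iigp1) were called higher, beside 19 of all 11067 genes. Without the 12-week libraries it was 1 (Cxcl9), beside 51 of all genes. Without the 3-week libraries it was 0, beside 2 of all genes. The error in this test is the difference of the genotype effect between ages. Even Il10rb, the targeted gene, was not called in the main fit, so its 0 calls do not show that the genotypes were alike.

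The targeted gene fitted the labels: Il10rb was 102-fold, 38.2-fold and 40.4-fold lower in KO MΦs at 1, 3 and 12 weeks. The MΦ identity was checked on 16 markers, all past the filter. Of these, 0 were over 3-fold higher and 1 lower in KO MΦs at 1 week, beside 2.75% and 0.75% of all genes. At 3 weeks it was 0 in either direction, beside 1.34% and 0.642% of all genes. At 12 weeks 0 were higher and 7 lower, beside 4.03% and 9.99% of all genes, and the median log2 ratio was -0.72. The Fc receptor gene Fcgr1 and the MHCII gene H2-Ab1 differed little between genotypes at any age (log2 ratios between -0.19 and 0.30), while at 12 weeks Adgre1, which encodes F4/80, and Cx3cr1, a chemokine receptor of resident gut MΦs, were lower in KO MΦs (-2.12 and -3.16).

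Markers of other cells also differed between genotypes at 12 weeks. Of 12 monocyte genes, 7 were over 3-fold higher and 1 lower in KO MΦs, beside 4.03% and 9.99% of all genes. Their median log2 ratio was 2.14, and their summed level was 32413 in Het and 52529 in KO MΦs. Ccr2, the receptor that draws monocytes into tissue, was at 0.21. At 3 weeks 1 monocyte gene was over 3-fold higher (Plac8, log2 ratio 1.73) and 1 lower (Chil3, -1.88), beside 1.34% and 0.642% of all genes. The median was 0.01 and Ccr2 was at -0.09. Plac8, Chil3 and, below, F13a1, Fn1, Vcan and Hp were named after their values were seen. The summed level at 3 weeks was 44891 in Het and 38330 in KO MΦs, so lower in KO MΦs. Its largest parts were Ccr2 (20629 in Het and 19378 in KO MΦs), F13a1 (13406 and 9089) and Fn1 (6970 and 3309). Gene by gene, 6 of the 12 were higher and 6 lower in KO MΦs, so the sum does not speak for the whole list. At 1 week the summed level was 6881 in Het and 15324 in KO MΦs, with Ccr2 at 1.43. There 3 monocyte genes were over 3-fold higher and 0 lower, beside 2.75% and 0.75% of all genes. They were Fn1, Vcan (0 Het and 6 KO reads) and Hp (7 and 16 reads). The part of these genes' cells in the Ly6c2 difference was not tested at any age.

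Ly6c1 and Ly6a are known from endothelium. Endothelial genes were lower in 12-week KO MΦs, as Ly6c1 was, whereas Ly6a was higher there (log2 ratio 2.39). Of 9 endothelial genes past the filter, 8 were over 3-fold lower in KO MΦs at 12 weeks (median log2 ratio -1.86), beside 9.99% of all genes. The summed level of all 10 was 2047 in Het and 651 in KO MΦs. Cdh5, which encodes VE-cadherin, had 154 Het and 25 KO reads (-2.19). At 1 and 3 weeks the summed level was between 170 and 326 in both genotypes, and Cdh5 had between 4 and 29 reads. Over 3-fold higher were 3 of the 9 at 1 week and 2 at 3 weeks, beside 2.75% and 1.34% of all genes. None was over 3-fold lower, beside 0.75% and 0.642%. The higher ones were Emcn, Ptprb and Flt1, then Tek and Emcn, each on 0 Het and at most 9 KO reads (named after their values were seen). Col1a1, a fibroblast collagen, was also lower at 12 weeks (-3.36). All 8 fibroblast genes past the filter were over 3-fold lower, beside 9.99% of all genes. At 1 week the direction was the other way, with 7 of these 8 over 3-fold higher in KO MΦs (median log2 ratio 2.66), beside 2.75% of all genes. At 3 weeks 0 were past 3-fold in either direction (median 0.04), beside 1.34% of all genes higher and 0.642% lower. Whether such cells carried the Ly6c1 reads was not tested.

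Neutrophil genes were higher in 12-week KO MΦs, 6 of 7 past the filter by over 3-fold (median 2.96), beside 4.03% of all genes. Their summed level was 1858 in Het and 12462 in KO MΦs. S100a8, an abundant neutrophil protein, had 27 Het and 2628 KO reads at 12 weeks, and at most 3 reads in any library at 1 and 3 weeks. Cd3e, a T cell gene, had 84 Het and 146 KO reads at 12 weeks. At 3 weeks the summed level of neutrophil genes was 1450 in Het and 2169 in KO MΦs. All 7 B and plasma cell genes were lower in KO MΦs at 12 weeks. Of the remaining lists, 2 T cell, NK cell and ILC genes were higher and 1 lower of 6, 5 epithelial genes higher and 1 lower of 10, and 2 dendritic cell genes higher and 1 lower of 8 at 12 weeks. Of all genes, 4.03% were higher and 9.99% lower at that age. The part of these cells in the Ly6 values was not tested.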

How the data were processed

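RNA-seq was performed on 6 libraries of sorted colonic P3/P4 MΦs. The authors trimmed single-end reads with Trim Galore, aligned them to mm10 with TopHat, counted them per gene with HTSeq and divided each count by a DESeq size factor. The deposited values are this normalized signal, with 0 reads shown as 1. Versions, gene annotation and strand setting are not given in the sources used here. The labels name a SmartSeq kit and the methods oligo dT beads. Apart from 1, all values (100%) of a library were whole multiples of a single step (tolerance 0.1 step), by which reads were recovered. Steps lay between 0.473 and 2.43 normalized counts per read, and genes at 0 reads numbered 214 to 878 a library.

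The members and lists were chosen with earlier results of these data known. Each log2 ratio has a 95% interval, carried over from the exact (Clopper-Pearson) interval of the KO share of the gene's reads. A fold against 0 reads was bounded by 3 reads. The 3-fold threshold was applied to genes that reached 50 normalized counts in any library. Genotype was tested with limma 3.58.1 (R 4.3.3) on log2(value + 1) with age as a term and a trend, with Benjamini-Hochberg adjustment at 0.05. Without replicate libraries at an age, its error is the variation between ages. Read-length windows, coding sequences and exon lengths came from GENCODE M21 (GRCm38), promoters from RefSeq (2 of 5 members matched). Alignments used Biopython 1.88 in Python 3.11.15 with numpy 2.4.6, pandas 2.3.3, scipy 1.17.1 and matplotlib 3.10.9. The named genes were the 5 members, the other Ly6/uPAR genes of the table, up to 6 genes past 3-fold at 3 or 12 weeks of each pathway list, the 3 genes most correlated with each member, neighbours past 3-fold, 10 cell markers and Il10rb. Others (Ifit1, Ifit2, Ifit3, Mx1, the interferon receptor chains, Jrk) were named after their values were seen. The values of 2 genes that this rule names are not reported here. The scripts were tested on simulated data. Alternatives were pseudocounts, filters, scalings, leaving out an age, window length, limma-voom and, chosen after seeing the data, transcript length.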

Additional observations from a re-analysis of the deposited data

Results flagged for a closer look

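Of the 5 Ly6 genes, 4 had KO over Het ratios of opposite sign at different ages. There is 1 library for each genotype and age, and the difference between ages was not tested. Ly6c2 had a log2 ratio of -0.40 at 1 week, with a counting interval that takes in 0, and of 4.87 and 4.19 at 3 and 12 weeks. Ly6a had -0.65 at 1 week, also within counting error of 0, and 3.97 and 2.39 later. Ly6e had -0.046 at 1 week, within counting error of 0, and 0.86 and 1.49 later. Ly6c1 had 1.62 at 3 weeks on 2 and 17 reads, with an interval that takes in 0, and -2.34 at 12 weeks on 1238 and 182 reads.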

How the results depend on the processing

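None of the 14 member ratios with reads in both libraries changed direction where it was over 3-fold, and 52 of 56 alternative values stayed within the counting interval. A pseudocount added to both values cannot turn a ratio round, and the scalings moved these ratios by only -0.22 to 0.03 in log2. No ratio over 3-fold could thus have changed direction, so nothing is read from the lack of such changes. Scaling by total reads moved the median log2 ratio of all genes at 12 weeks from 0.04 to -0.19 and the 12-week ratios to 3.97 (Ly6c2), 2.17 (Ly6a), 6.57 (Ly6i) and 1.27 (Ly6e). It gave age changes in KO MΦs from 3 to 12 weeks of 2.78 (Ly6c2), 0.72 (Ly6a), 3.43 (Ly6i) and 0.45 (Ly6e), of 1.06 for Ly6e from 1 to 3 weeks, and in Het MΦs for Ly6e of 0.21 and then -0.015, so that this last rise did not hold. TMM gave 0.83 for Ly6e in KO MΦs from 3 to 12 weeks. Scaling by total reads or a pseudocount of 10 left 3 members over 3-fold higher at 3 weeks in place of 4, without Ly6c1.

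With no filter, the genes over 3-fold higher and lower numbered 836 and 288 (1 week), 472 and 423 (3 weeks), and 780 and 2167 (12 weeks). With the filter on the 2 libraries compared it was 90 and 43 at 1 week and 78 and 27 at 3 weeks, and with a pseudocount of 10 it was 98 and 27, and 72 and 13. In limma, leaving out an age gave between 2 and 51 genes higher and between 1 and 10 lower (19 and 1 without 1 week, 2 and 1 without 3 weeks, 51 and 10 without 12 weeks). The 2 higher were F10 and Sdc1, and the 1 lower was Il10rb. A pseudocount of 10 gave 1 lower (Il10rb), and limma-voom, added after seeing the data, gave 3 higher. The planned quasi-likelihood count fit was not run, as the table was deposited as normalized values and not as counts. With windows of 50 bases, 33.0% (Ly6c2), 36.7% (Ly6c1), 8.05% (Ly6a) and 4.97% (Ly6i) occurred in another gene. The cause of these moves was not tested.

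Depth limits Ly6c1 at 1 and 3 weeks and Ly6c2 in Het MΦs before 12 weeks, each on 6 reads or fewer in a Het library.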
